A study of Homo sapiens with 8 samples.

Results

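The genes described here make cholesterol and fatty acids or control their making: 18 enzymes of cholesterol synthesis, 4 regulators and 8 enzymes of fatty acid synthesis. Members were taken by gene name from the authors' deposited table of translation efficiency, and 29 of the 30 had a transcript among its 12109. The sterol reductase HSD17B7 had none, so its efficiency was not analysed here, and it enters the promoter counts only. The study used human hepatic stellate cells (the cells that form scar tissue in the liver), labelled as a cell line and grown in DMEM with serum. Cells with the genotype label LARP6 kd had received dsiLARP6, and cells with the genotype label WT had received dsi-control. Ribosome profiling, which sequences the RNA fragments covered by ribosomes, and RNA-seq were each run on 2 libraries of knockdown cells and 2 of control cells, 8 in all. The labels of these libraries name no other treatment, and LARP6 is an RNA-binding protein described as a binder of collagen messages.

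Cholesterol is built from acetyl-CoA by way of mevalonate, isoprenoid units, squalene and lanosterol, and fatty acids are built from the same acetyl-CoA by way of malonyl-CoA. Both routes are switched on at the level of transcription by the SREBP factors, encoded by SREBF1 and SREBF2. SCAP carries SREBP out of the endoplasmic reticulum when sterols are scarce, and INSIG1 holds the pair back when sterols are plentiful. Stellate cells store lipid droplets while quiescent and lose them on activation.

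The promoters of 4 members are shown because transcription is the step at which the pathway is classically switched. Promoter sequences came from RefSeq on GRCh38.p14 for 26 of the 30 members; ACAT2, FASN, FDFT1 and SQLE had no entry. Each stretch is written 5′ to 3′ on the gene's own strand and ends before the first base of the transcript in the table. Capitals mark TCACNCCAC, the core of the sterol regulatory element that SREBP binds, and CCAAT, the box bound by the SREBP partner NF-Y; both were searched on both strands, so CCAAT also appears as ATTGG. The SREBF2 stretch (chr22:41832925-41833104, plus strand) holds one of each, and INSIG1 (chr7:155297628-155297775, plus strand) holds a single CCAAT box. The HMGCS1 stretch (chr5:43313494-43313592, minus strand) and the SCD stretch (chr10:100346993-100347123, plus strand) hold a pair of CCAAT boxes each.
SREBF2: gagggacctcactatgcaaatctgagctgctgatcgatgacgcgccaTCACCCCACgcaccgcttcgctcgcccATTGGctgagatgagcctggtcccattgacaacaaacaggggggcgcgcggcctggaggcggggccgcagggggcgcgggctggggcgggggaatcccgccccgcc
INSIG1: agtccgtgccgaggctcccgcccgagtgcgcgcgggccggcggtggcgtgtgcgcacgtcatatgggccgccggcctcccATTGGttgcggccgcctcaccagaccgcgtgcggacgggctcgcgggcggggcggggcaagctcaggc
HMGCS1: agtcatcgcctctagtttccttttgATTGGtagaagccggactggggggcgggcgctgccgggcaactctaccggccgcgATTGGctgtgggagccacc
SCD: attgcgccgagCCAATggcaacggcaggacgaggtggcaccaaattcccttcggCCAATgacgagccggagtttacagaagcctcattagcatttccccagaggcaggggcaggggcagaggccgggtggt

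Windows ran from 250 bases before to 50 after the first listed RefSeq start, which can lie past the end of the printed stretch. In them CCAAT was found for 17 of the 26 members (65.4%), against 35.7% of 27305 genes with a RefSeq promoter. Those 27305 genes were not limited to genes measured here. The sterol element core was found for SREBF2 alone (3.85% of members, against 1.15% of all), and the E-box CACGTG, which shared no base with the other matches, for 5 members (19.2%, against 7.43%). These are matches of letters in a short window. Translation efficiency does not measure promoter activity, and the windows say nothing of the efficiencies that follow.

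After LARP6 knockdown no member of the pathway changed its translation efficiency at an adjusted p under 0.05, a threshold set here on the authors' adjusted p. Translation efficiency is the number of ribosome footprints relative to RNA, given as a log2 value, and its log2 change is knockdown over control. Of the 29 members in the authors' deposited table, 0 passed an adjusted p of 0.05, higher or lower, where 2.2% of all 12109 transcripts did, 1.07% higher and 1.12% lower. An unadjusted p under 0.05 was reached by 2 members, INSIG1 and SREBF1 (6.90%), against 10.3% of all transcripts in the authors' deposited table. The median log2 change of the members was 0.03, against 0.02 over all transcripts, and 16 members lay above 0 and 13 below in the authors' deposited table. Above 0 lay 55.2% of members and 50.8% of all transcripts.

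The members also spread less than the table as a whole. Their median absolute log2 change was 0.15, against 0.33 over all transcripts and 0.31 over protein-coding ones in the authors' deposited table. In the neighbouring lipid lists described below it ran from 0.22 (sterol uptake, transport and export) to 0.39 (glycerolipid and phospholipid synthesis). The other sterol synthesis and control genes had 0.24, with 0% of them beyond 0.5. Only SCD, TM7SF2 and FDPS were beyond 0.5 in either direction, 10.3% of members, against 33.3% of all transcripts in the authors' deposited table. All 3 have a named pseudogene or an overlapping gene, as given with each gene, so their reads may be shared. Of the 29 members, 16 have neither, and the part of shared reads in the values was not tested. In all, the transcripts of 10 members, FDPS and ACAT2 among them, overlap a gene on the opposite strand, and no source used here says whether counting used the strand. No spread between libraries stands beside these values, since the table gives none per library and no read depth. A p that misses the threshold does not show that a gene was unchanged. In the authors' deposited table the smallest absolute log2 change of any called transcript was 0.34, and 9 members lay beyond it without being called.

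**Figure D1:**
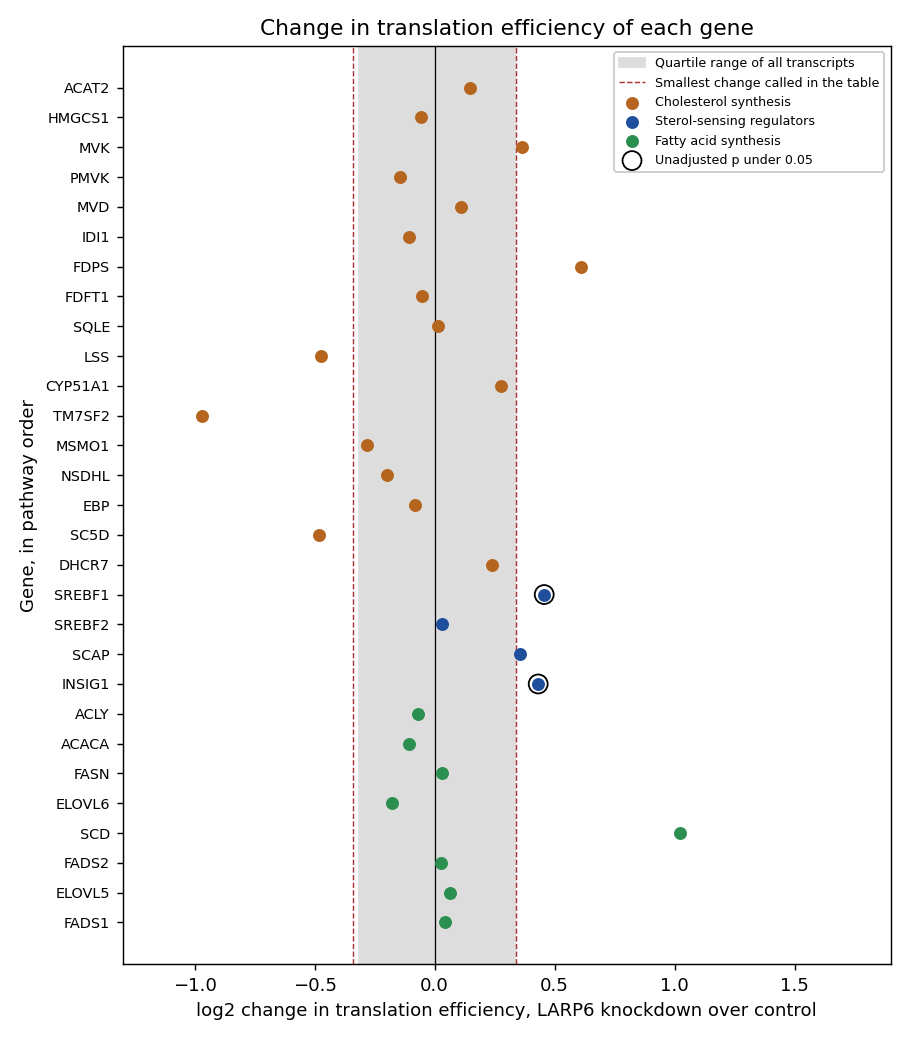
Each point is the log2 change in translation efficiency (x axis, LARP6 knockdown over control) of 1 gene, listed in pathway order, from the authors' deposited table; colours mark the branch and rings mark an unadjusted p under 0.05. The grey band spans the lower to the upper quartile of all 12109 transcripts, −0.32 to 0.34, and the dashed lines mark the smallest absolute change called, 0.34; most genes lie inside the band, while SCD and TM7SF2 lie farthest out at 1.02 and −0.97.

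Of the 4 regulators, INSIG1 and SREBF1 had the lowest p-values of any member, and all 4 log2 changes were above 0. INSIG1, the protein that retains SREBP in the endoplasmic reticulum (chromosome 7, 155297776 to 155310235, GRCh38, transcript of 6 exons), had a knockdown log2 efficiency of 0.73, against a control value of 0.30 derived from the authors' deposited table. This is a log2 change of 0.43 (1.35-fold), with an unadjusted p of 0.0108 and an adjusted p of 0.232 per the authors' deposited table. It ranked 565th of 12109 by p, and its adjusted p was the lowest of any member. Both estimates in the authors' deposited table gave nearly the same p for it, 0.0107 and 0.0108.

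SREBF1 (chromosome 17, 17812073 to 17837002) encodes the SREBP that mainly drives fatty acid genes. Its log2 efficiency was 0.74 in knockdown cells, against a derived 0.29 in control cells, a change of 0.46 (1.37-fold) with an unadjusted p of 0.0253 and an adjusted p of 0.354 per the authors' deposited table. The escort protein SCAP, on chromosome 3, had −0.52 in knockdown cells against a derived −0.87 in control cells, a log2 change of 0.36 with an unadjusted p of 0.186 per the authors' deposited table. SREBF2, which encodes the SREBP that mainly drives cholesterol genes, lay close to 0 in its change, with −0.30 in knockdown cells against a derived −0.33 in control cells and a log2 change of 0.03 per the authors' deposited table. The median log2 change over these 4 regulators was 0.39, against 0.02 over all transcripts of the authors' deposited table, and none of them was called. Whether SREBF1 and SREBF2 differ in their change was not tested, since the table allows no test between genes.

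Early cholesterol synthesis, the steps that turn acetyl-CoA into farnesyl diphosphate, held log2 changes of both signs. Of its 7 measured enzymes 4 lay above 0 and 3 below, with a median of 0.11 in the authors' deposited table. The largest value was that of FDPS, which makes farnesyl diphosphate (chromosome 1, 155308852 to 155320665). FDPS had a log2 efficiency of −1.64 in knockdown cells against a derived −2.25 in control cells, a change of 0.61 (1.53-fold) with an unadjusted p of 0.265 per the authors' deposited table. FDPS has 8 annotated pseudogenes that carry its name, and no source used here says how reads shared between copies were treated, so its value is uncertain. MVK, mevalonate kinase, followed with a log2 change of 0.37 and an unadjusted p of 0.392 per the authors' deposited table.

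The other early enzymes lay close to 0. In the authors' deposited table ACAT2, the thiolase that joins acetyl-CoA units, had a log2 change of 0.15, and HMGCS1, which makes the substrate of mevalonate synthesis, one of −0.06. The decarboxylase MVD had 0.11, the phosphomevalonate kinase PMVK −0.14 and the isomerase IDI1 −0.11 in the authors' deposited table. The unadjusted p-values of these 5 ran from 0.618 to 0.832.

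Late cholesterol synthesis, from the making of squalene on, had most of its values below 0. Of the 10 measured enzymes 7 lay below 0 and 3 above, with a median of −0.14 and no call in the authors' deposited table. TM7SF2, a sterol reductase (chromosome 11, 65111854 to 65116356), was lowest, with a log2 efficiency of −0.77 in knockdown cells against a derived 0.20 in control cells. Its log2 change of −0.97 (1.96-fold lower) had an unadjusted p of 0.155 and an adjusted p of 0.758 per the authors' deposited table. The exons of its transcript overlap the span of VPS51 on the same strand, by a length that was not measured. The part of reads from that gene in its value was not tested.

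SC5D, the sterol desaturase (chromosome 11), had a log2 efficiency of 1.18 in knockdown cells against a derived 1.66 in control cells, a change of −0.48 with an unadjusted p of 0.124 per the authors' deposited table. LSS, which closes the sterol rings to form lanosterol (chromosome 21), had −0.87 in knockdown cells against a derived −0.39 in control cells, a log2 change of −0.47. With 0.0903 it had the lowest unadjusted p among the cholesterol enzymes in the authors' deposited table, and an adjusted p of 0.630. The methyl sterol oxidase MSMO1 and the dehydrogenase NSDHL had log2 changes of −0.28 and −0.20 in the authors' deposited table. The isomerase EBP had −0.08, and FDFT1, which makes squalene, −0.05.

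The 3 late enzymes above 0 in the authors' deposited table were the lanosterol demethylase CYP51A1 at 0.28, the last reductase DHCR7 at 0.24 and the squalene epoxidase SQLE at 0.02. SQLE, a step of the pathway often described as rate-limiting, had a log2 efficiency of 0.28 in knockdown cells against a derived 0.26 in control cells, and with 0.927 the highest unadjusted p of all members in the authors' deposited table. CYP51A1 has 3 annotated pseudogenes that carry its name, and its exons overlap the spans of 2 other annotated genes on its strand, so its value is uncertain.

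**Figure D2:**
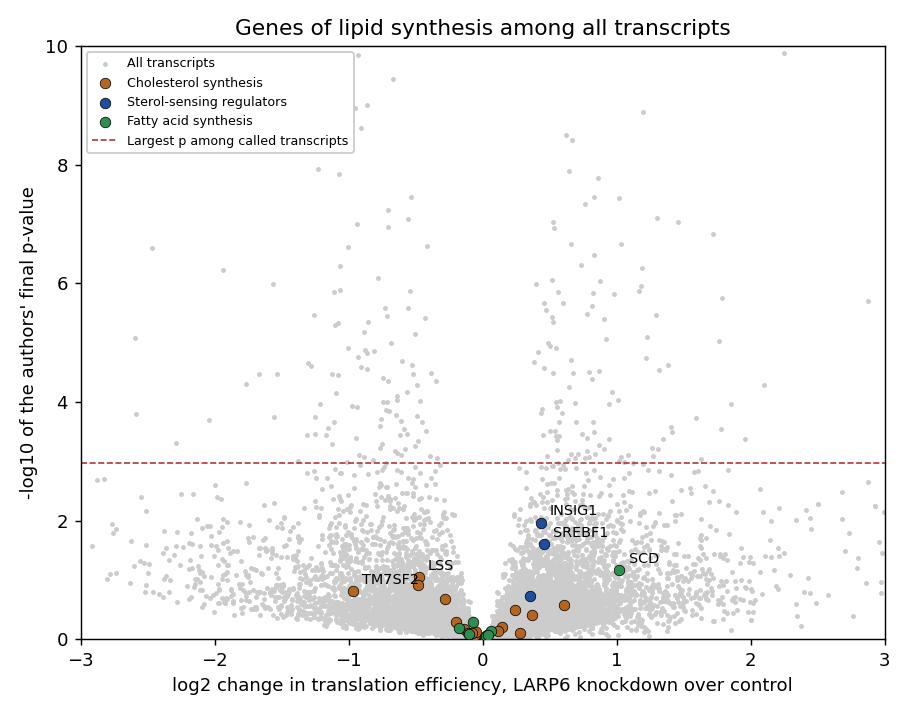
The x axis is the log2 change in translation efficiency (LARP6 knockdown over control) and the y axis is −log10 of the authors' final p-value, for all transcripts (grey) and the members (coloured by branch); 65 transcripts, none of them members, lie outside the axes. The dashed line is the largest p of any called transcript, 0.00108, and every member lies under it, INSIG1 and SREBF1 nearest.

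Fatty acid synthesis was split between SCD and the other 7 enzymes, whose log2 changes all lay between −0.18 and 0.07 in the authors' deposited table. SCD, the desaturase that makes oleate-type fatty acids (chromosome 10, 100347124 to 100364834), had a log2 efficiency of −2.88 in knockdown cells against a derived −3.90 in control cells. Its log2 change of 1.02 (2.03-fold) was the largest of any member, with an adjusted p of 0.565 per the authors' deposited table. Both estimates gave its size as 1.02, while its p was 0.0129 by the first and 0.0688 by the second in the authors' deposited table. The authors kept the larger p as final. SCD has 1 annotated pseudogene that carries its name, so shared reads are possible here too.

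The core of fatty acid synthesis lay near 0. ACLY, which supplies cytosolic acetyl-CoA, had a log2 efficiency of 0.04 in knockdown cells against a derived 0.11 in control cells, a change of −0.07 per the authors' deposited table. ACACA, the carboxylase that makes malonyl-CoA, had −1.74 in knockdown cells against a derived −1.64 in control cells, a log2 change of −0.11, both from the authors' deposited table. FASN, the synthase that extends the chain, had −1.31 in knockdown cells against a derived −1.34 in control cells, a log2 change of 0.03 per the authors' deposited table. The elongases ELOVL6 and ELOVL5 had log2 changes of −0.18 and 0.07, and the polyunsaturated desaturases FADS2 and FADS1 had 0.03 and 0.04 in the authors' deposited table. The unadjusted p-values of these 7 ran from 0.522 to 0.878.

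Levels of translation efficiency differed between members far more than knockdown differed from control. In knockdown cells the members ran from −3.13 for CYP51A1 to 1.35 for ACAT2 on the log2 scale, and 18 of 29 stood above the median of all transcripts in the authors' deposited table. The median member level was 0.28 in knockdown cells and a derived 0.26 in control cells, while the median over all transcripts was 0.01 in knockdown cells and 0.00 in control cells. CYP51A1 and SCD lay in the lowest 2% of all transcripts in both conditions, at percentiles 1.36 and 1.73 in knockdown cells against 1.03 and 0.59 in control cells. ACACA, FDPS and FASN were also low, with knockdown percentiles of 6.61, 7.69 and 12.2 in the authors' deposited table. CYP51A1, SCD and FDPS have annotated pseudogenes that carry their names, while ACACA and FASN have none. Exons of CYP51A1 also overlap the spans of other genes on its strand. The part of shared reads in these low levels was not tested.

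At the other end, ACAT2, EBP, SC5D, ELOVL5, NSDHL and FDFT1 all had a knockdown log2 efficiency above 1 in the authors' deposited table. No source used here gives the region over which footprints and RNA were counted, so the order of genes describes these ratios only. The share of each transcript that is coding differed among the low members, with 20.1% for SCD, 47.7% for CYP51A1 and 88.1% for FDPS. Across the 29 members the knockdown level had a Spearman rho of −0.38 with transcript length, and across 10395 protein-coding transcripts of the table the rho was −0.43. Of the other features compared, 5′ UTR length and upstream start codons were positive across members and negative across all. The rest were negative in both. These correlations are across genes that share the same libraries, and genes are not independent replicates.

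**Figure D3:**
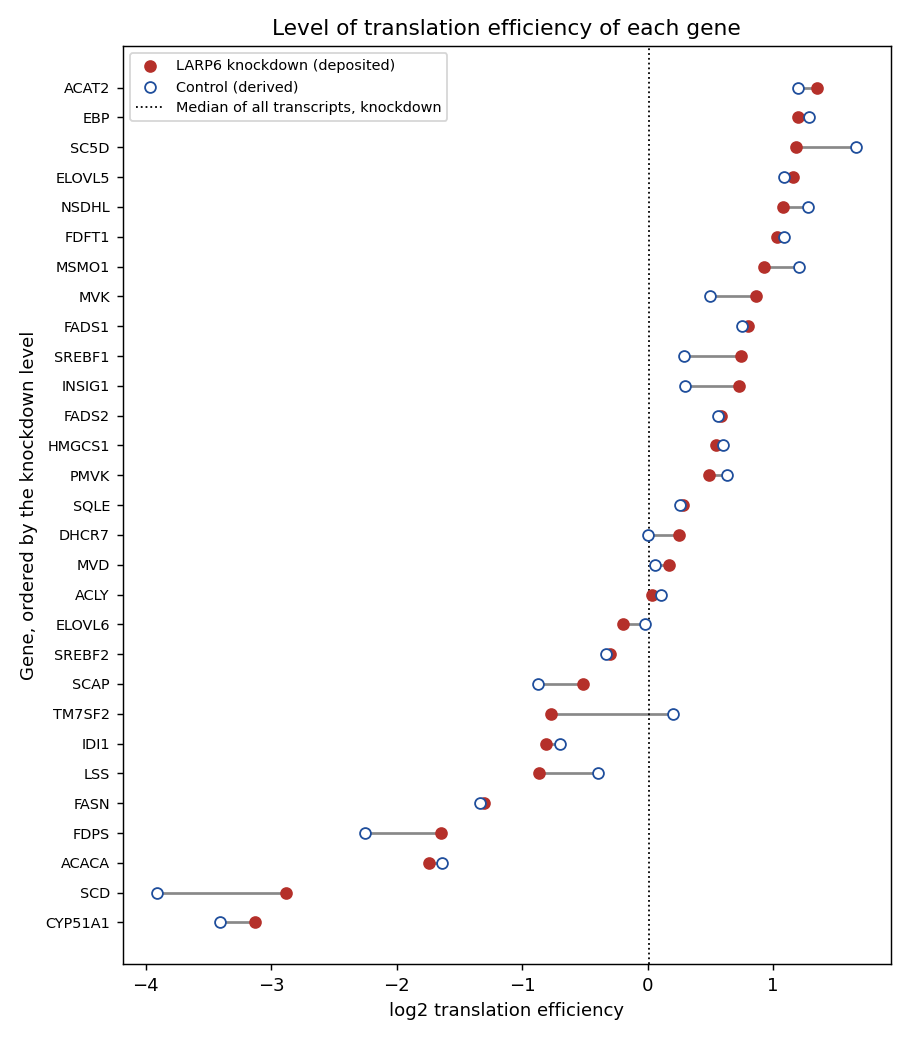
Each row is 1 gene with its log2 translation efficiency (x axis) in LARP6 knockdown cells (filled, from the authors' deposited table) and in control cells (open, derived from it), joined by a line and ordered by the knockdown level. The rows span −3.13 to 1.35 in knockdown cells, and most lines are short beside that range, the longest being those of SCD and TM7SF2.

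The transcripts of the members were set beside the other messages measured. The median 5′ UTR was 211 bases for members and 187 bases for the 10395 protein-coding transcripts of the table, with a GC content of 66.4% and 67.6%. Upstream start codons were lacking in 51.7% of members and 50.8% of all, and were most numerous in ACAT2 (22) and EBP (12). A purine 3 bases before the start codon, a feature of strong initiation sites, was found in 22 of 29 members (75.9%). Its share was 87.0% of the 10213 transcripts with at least 3 bases of 5′ UTR. A G right after the start codon was found in 51.7% of members, against 53.8% of all 10395. Both features together were found in 10 of 29 members (34.5%), against 46.1% of all 10395, where a shorter 5′ UTR counted as lacking the purine. INSIG1, CYP51A1, DHCR7, PMVK, ELOVL5, ELOVL6 and FADS1 were the members without the purine, and their log2 changes in the authors' deposited table had both signs. The log2 change had a Spearman rho of 0.34 with 5′ UTR GC content across the 29 members and 0.12 across all, given as a description. Of the transcript features compared, this was the members' largest rho with the change. Transcript length, coding length and exon number had opposite signs across members and across all, and the remaining features had the same sign.

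Among 90 measured genes of 5 neighbouring lipid lists, 2 were called in the authors' deposited table (2.22%), the same share as over all transcripts (2.2%). Of 17 measured genes of sterol uptake, transport and export, of 18 listed, 1 fell and 0 rose, with a list median of −0.04 and 4 at an unadjusted p under 0.05 (23.5%, against 10.3% of all transcripts). That gene was CAV1, caveolin-1, a cholesterol-binding membrane protein (chromosome 7, 116524785 to 116561176), with a log2 efficiency of −0.34 in knockdown cells against a derived 0.49 in control cells. It fell by 0.82 on the log2 scale (1.77-fold lower) with an adjusted p of 6.5e-12 per the authors' deposited table. Of 21 measured genes of other fatty acid synthesis steps, of 25 listed, 1 rose and 0 fell, with a median of 0.05 and 4 at an unadjusted p under 0.05 (19.05%).

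The gene that rose was FADS3, a desaturase relative in the same cluster on chromosome 11 as FADS1 and FADS2. Its log2 efficiency was 0.53 in knockdown cells against a derived −0.18 in control cells, a log2 change of 0.71 (1.64-fold) with an adjusted p of 0.0378 per the authors' deposited table. Its neighbours FADS2 and FADS1 had 0.03 and 0.04, and the difference between the 3 genes was not tested. The transcripts of FADS1 and FADS2 overlap each other's gene on opposite strands, and FADS2 has 1 annotated pseudogene that carries its name. Of 14 measured other sterol synthesis and control genes, of 15 listed, 0 were called, 0 had an unadjusted p under 0.05 and the median was −0.13. The protease MBTPS1, which cuts SREBP, had a log2 change of −0.46 with an unadjusted p of 0.0665 per the authors' deposited table.

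**Figure D4:**
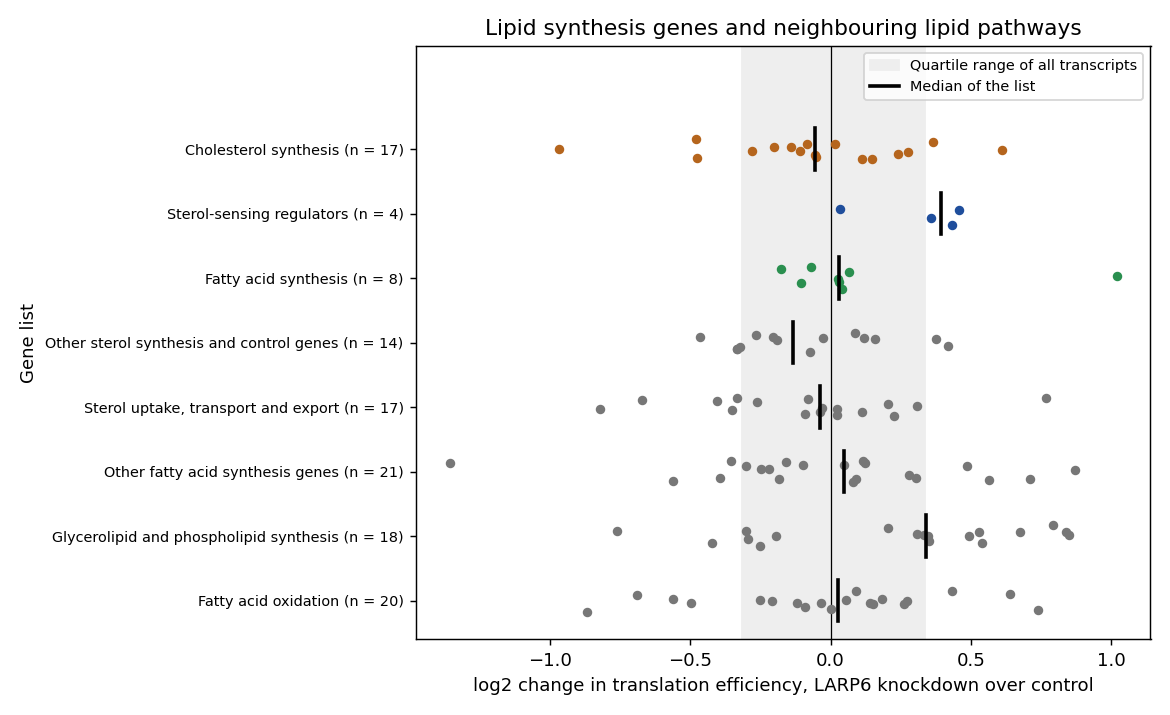
Each point is the log2 change in translation efficiency (x axis, LARP6 knockdown over control, authors' deposited table) of 1 gene in the 3 branches of lipid synthesis (coloured) and in 5 neighbouring lists (grey); black bars are list medians and the shaded band spans the quartiles of all transcripts. The medians run from −0.13 for other sterol genes to 0.39 for the regulators, and points of every list but the regulators lie on both sides of 0.

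The cell label was set beside marker genes. Of 10 stellate cell markers 7 had a transcript in the table, and DES, LRAT and RGS5 had none. All 7, collagens among them, fell in the authors' deposited table, by 0.42 to 1.11 on the log2 scale. A transcript in the table, or a change in its efficiency, does not settle which cells were used. Of other cell types, 2 of 8 hepatocyte, 3 of 4 cholangiocyte, 1 of 4 endothelial and 1 of 4 leukocyte markers had a transcript, and 0 were called; ALB, which defines hepatocytes, had no transcript in the table. Their part in the members' values was not tested. LARP6 itself had a log2 change in efficiency of 0.07 (adjusted p 0.981; authors' deposited table), a ratio that does not check the knockdown; LARP6 abundance was not analysed here.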

How the data were processed

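The authors deposited 1 table whose columns, per the file headers, are log2 values (the knockdown's log2 translation efficiency, and the log2 change by 2 estimates and as a final value) and p-values (1 per estimate, a final p and an adjusted p). The final p that the authors deposited is the larger of both estimates' p-values in 12109 transcripts (relative tolerance 1e-09), adjusted by Benjamini-Hochberg over them. Per the submitters' processing notes, cutadapt, Bowtie, hg38 and GRCh38 were used, without versions; no source used here names the program that compared efficiencies. The table holds no value per library, so the count model that was planned was not run, and no depth or standard error can be given. The p-values are the authors', and a call is an adjusted p under 0.05, a threshold set here. Whether replicates came from separate cultures is not labelled, so p-values may measure technical spread.

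The control's log2 efficiency was derived by subtracting the second estimate's log2 change from the knockdown's log2 efficiency. Transcripts were matched by name and the last 6 digits of their identifier to GENCODE release 29 (11581 matched, 10551 protein-coding, all 29 members). Promoters came from RefSeq, the first listed start of each gene. Members and lists were chosen with earlier results of these data known, so no list was tested. All members are named; of other lists, called genes or otherwise the 2 largest absolute changes, of which some are not reported here. Adjustments were recomputed in Python 3.11.15 with pandas 2.3.3 and tested on simulated data.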

Additional observations from a re-analysis of the deposited data

How the results depend on the processing

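The absence of calls among the members held at an adjusted p of 0.01 and of 0.1, with the first or the second estimate alone, and over protein-coding transcripts only (0 members in each). The lowest adjusted p was that of INSIG1 throughout, from 0.147 with the first estimate alone to 0.232 as deposited. Without adjustment 2 members passed a p of 0.05. The members' median log2 change of 0.03 was −0.0564 for the cholesterol enzymes alone and 0.03 for the fatty acid enzymes alone. It was −0.02 over the 16 members with neither a named pseudogene nor an overlapping gene, and 0.03 without SCD and TM7SF2; both settings were chosen after the data were seen. The count of 16 members above 0 was the same when centred on the median of all transcripts. No paired analysis was possible because single libraries have no values in the table; for that reason the planned runs without single replicates and with other normalizations, filters or pseudocounts were not run. Depth is unknown, so which members were too shallow to be called cannot be said.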

Other observations

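Lipid genes downstream of synthesis were described by counts only. Of 18 measured genes of glycerolipid and phospholipid synthesis, 12 lay above 0 and the median log2 change was 0.34 in the authors' deposited table, the highest of the 5 neighbouring lists, with 0 called and 2 at an unadjusted p under 0.05 (11.1%, against 10.3% of all transcripts). Its largest values were those of CHKA, choline kinase, at 0.85 (unadjusted p 0.310) and LPIN2, a phosphatidate phosphatase, at 0.84 (unadjusted p 0.0269) in the authors' deposited table. Of 20 fatty acid oxidation genes 10 lay above 0 and 9 below, with a median of 0.03, 0 called and 1 at an unadjusted p under 0.05 (5%) in the authors' deposited table. HADHA, of the mitochondrial trifunctional protein, had a log2 change of 0.74 (unadjusted p 0.115) per the authors' deposited table.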
